A study of Mus musculus with 12 samples.

Results

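T cell identity and signalling genes were described in whole spleens of mice lacking Il1rn (ko) and of wild-type mice (wt), all on the BALB/c background. The set lists 34 genes chosen by symbol: Cd3e, Cd3d, Cd3g, Cd247, Cd4, Cd8a, Cd8b1, Cd2, Cd5, Cd6, Thy1, Cd27, Cd28, Icos, Ctla4, Cd40lg, Il7r, Il2ra, Ccr7, Lck, Zap70, Lat, Txk, Trat1, Themis, Ubash3a, Skap1, Lef1, Tcf7, Bcl11b, Gata3, Satb1, Foxp3 and Ikzf2. An array probe set that carries 1 gene symbol was found for 32 of them, in 64 probe sets out of 45101 on the array. Lck and Tcf7 had no such probe set among those used here. For each gene the probe set with the highest mean over the 12 arrays stood for the gene, out of 18193 genes represented in that way.

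The 4 groups were ko mice at 4 months, wt mice at 4 months, ko mice at 1 month and wt mice at 1 month, with 3 mice per group and 1 Affymetrix array per spleen. Il1rn encodes the interleukin-1 receptor antagonist, a secreted protein that occupies the interleukin-1 receptor without triggering it. How the gene was inactivated, and the sex and housing of the mice, are not given in the sources used here. Values are scaled signals, the brightness of a probe set on a linear scale after each array was brought to a common trimmed mean of 500, and they are listed below by replicate 1, 2 and 3. The labels do not say whether animals with the same replicate number in different groups are matched, and they were treated as not matched.

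A T cell recognises a peptide held by an MHC molecule through its T cell receptor, whose antigen-binding chains signal through the CD3 and zeta subunits. The coreceptors CD4 and CD8 bind the MHC molecule and bring the kinase LCK to the complex, which leads to ZAP70 activation, phosphorylation of the adaptor LAT and downstream calcium and MAP kinase signals. In the spleen, T cells gather in the white pulp around small arteries, where chemokines sensed by CCR7 draw them, and IL-7 sensed by the IL-7 receptor keeps naive T cells alive. In mice the spleen also makes red blood cells and granulocytes, and this activity is greater in young animals.

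The genotype labels were checked first on Il1rn itself, at the brightest of its 3 probe sets. Its scaled signal was 40.8, 10.1 and 14.8 in ko spleens and 188, 161 and 278 in wt spleens at 4 months. At 1 month it was 23.6, 40.6 and 5.64 in ko spleens and 163, 143 and 120.5 in wt spleens. The genotypes did not overlap at either age, and the log2 difference was -2.17 at 4 months (limma adjusted p = 0.0034) and -1.70 at 1 month (limma adjusted p = 0.0403). The other 2 probe sets were not called at either age, with differences of -1.12 and -0.76 at 4 months and -0.57 and -0.96 at 1 month. The spleen label was checked on the B cell gene Ms4a1, which ranged over 5834 to 13557 in the 12 spleens, and on the red pulp macrophage genes Spic (1715 to 5312) and Slc40a1 (7001 to 18943). The thymus markers Ptcra (10.6 to 99.1) and Rag2 (3.81 to 47.4) stayed below the signal of 100 used as a filter in all 12 arrays. Of 12 listed thymocyte genes with a probe set, however, 8 had such a signal in 3 or more arrays. The 12 genes summed to 2837 to 5901 in the 12 spleens.

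Some arrays stood apart before any T cell gene was considered. The highest deposited signal was under 45000 on 6 arrays and over 45000 on the other 6: the low set held every one of the 3 ko spleens at 1 month, and 1 of the 3 spleens of each other group. In the wt spleen of replicate 2 at 4 months, 11 pancreas genes summed to 179065, against 1449 to 2661 in the other 11 spleens. No label says what separates the 2 array sets.

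Across the 34 genes, age was the larger contrast in both genotypes. A gene was tested if its chosen probe set had a scaled signal of at least 100 in 3 or more arrays, which held for 30 of the 34 genes. Differences were fitted with limma on log2(scaled signal + 32) over 27041 probe sets, and a gene was called at an adjusted p under 0.05. In ko spleens, 21 of the 30 genes were called higher at 4 months than at 1 month and 0 lower, where 15.7% of all 12326 genes tested were called higher and 10.9% lower. In wt spleens, 14 of the 30 were called higher and 0 lower, against 12.6% and 11.5% of all genes. The median log2 difference of the 30 genes was 0.71 in ko spleens and 0.57 in wt spleens, and that of all genes tested was 0.09 in ko spleens and 0.08 in wt spleens. Whole-spleen arrays measure RNA per total RNA, so more or fewer T cells and more or less RNA of a gene per T cell cannot be told apart.

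The 4-month spleens of ko mice lay above all 1-month spleens of ko mice for 26 of the 30 genes, where 30% of all genes tested did so. In wt spleens that held for 18 of the 30, where 19.3% of all genes did so. Counted by probe set, 32 of 55 were called higher with age in ko spleens and 24 of 55 in wt spleens, where 13.6% of all probe sets tested were called higher in ko spleens and 11.8% in wt spleens. The 6 arrays of the low set leave 1 mouse per group beside the 3 ko mice at 1 month. A fit to them assumes that a lone mouse varies like the others. There the T cell genes had a median log2 age difference of 0.53 in ko and 0.46 in wt spleens. All probe sets tested there had medians of 0.085 in ko and 0.086 in wt spleens. Most age calls of the main comparison were lost there. Within the 6 arrays of the high set, 12 of 28 genes were called higher with age in wt spleens. Of 25497 probe sets tested there, 3812 were called in either direction. The ko mice at 1 month had no array in the high set. Without the wt spleen that held pancreas genes, the wt calls of Cd247, Cd8b1, Zap70, Lat and Bcl11b were lost and Txk was called.

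**Figure D1:**
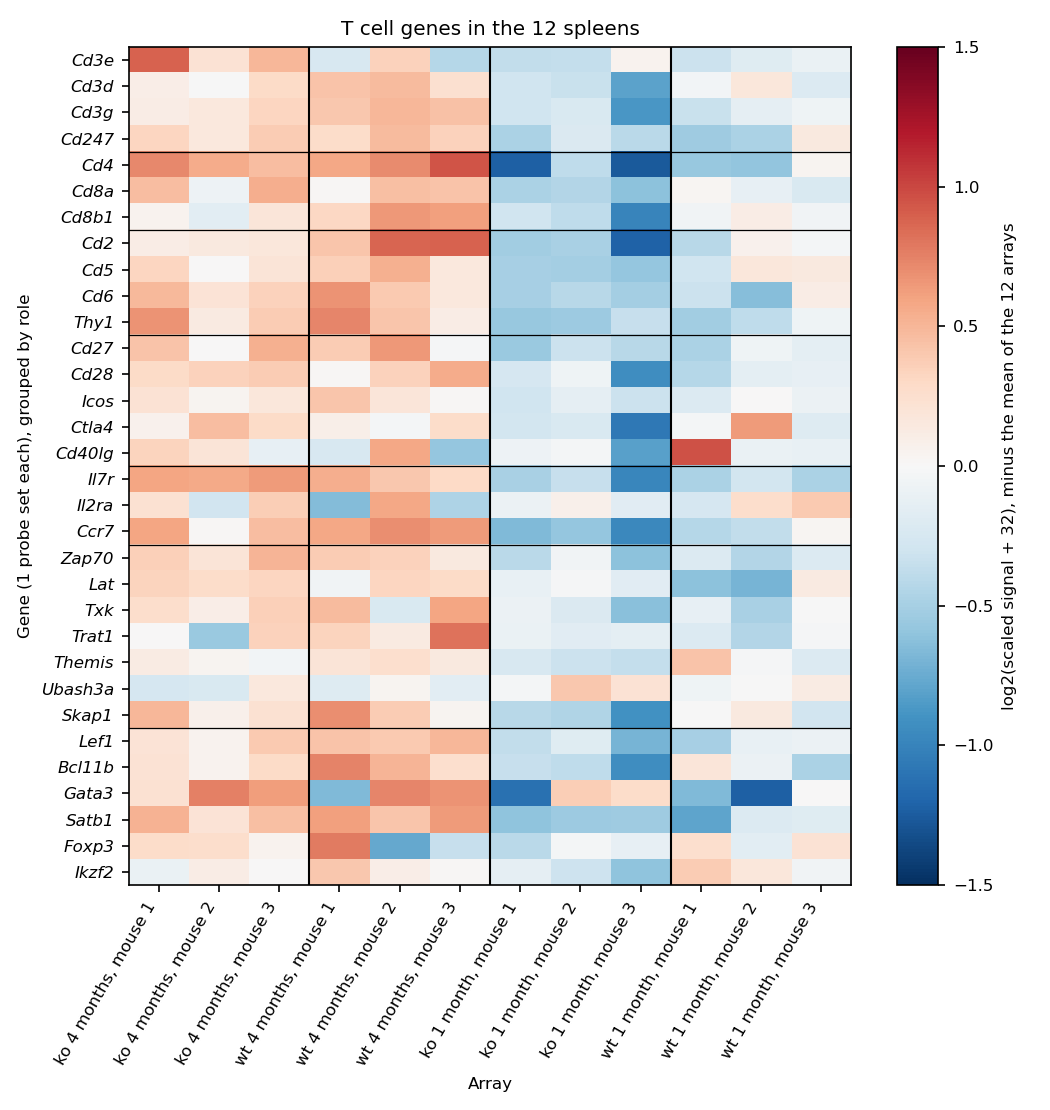
Each row is 1 T cell gene and each column 1 of the 12 spleens, with colour giving log2(scaled signal + 32) minus the gene's mean over the 12 arrays. Red stands for above that mean and blue for below it: the 4-month spleens on the left are mostly red and the 1-month spleens on the right mostly blue, while Ubash3a, Foxp3, Il2ra and Cd40lg do not follow that split.

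The invariant subunits of the T cell receptor were higher at 4 months, by call all 4 in ko spleens and Cd3g and Cd247 in wt spleens. Cd3g had 1747, 1797 and 2025 in ko spleens at 4 months, against 1300.0, 1369.9 and 864 at 1 month. Spleens of wt mice had 2132, 2294 and 2202 at 4 months, against 1268, 1464 and 1533 at 1 month. The ages did not overlap in either genotype, and the log2 difference was 0.67 in ko spleens (SE 0.16, limma adjusted p = 0.00789) and 0.63 in wt spleens (SE 0.16, limma adjusted p = 0.0122). Cd247, which encodes the zeta chain, averaged 555 ± 45.6 at 4 months and 341 ± 35.3 at 1 month in ko spleens (SD, n = 3 each). In wt spleens Cd247 averaged 585 ± 43.5 at 4 months and 369.8 ± 112 at 1 month (SD, n = 3 each). Its log2 difference was 0.65 in both ko (SE 0.19, limma adjusted p = 0.0185) and wt spleens (SE 0.19, limma adjusted p = 0.0203). The wt difference of Cd247 was 0.20 within the low array set, with 1 wt mouse per age, and 0.88 within the high set (limma adjusted p = 0.0197). It was 0.60 without the wt spleen with pancreas genes (limma adjusted p = 0.0615).

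Cd3d averaged 3379 ± 352 at 4 months and 2228 ± 417 at 1 month in ko spleens (SD, n = 3 each), a log2 difference of 0.61 (SE 0.16, limma adjusted p = 0.0115). In wt spleens it averaged 4029 ± 352 at 4 months and 3039 ± 401 at 1 month (SD, n = 3 each), a log2 difference of 0.41 that missed the threshold (SE 0.16, limma adjusted p = 0.0777). Cd3e was called in ko spleens alone, and the difference between the genotypes is tested further on. It had 2061, 1276 and 1557 in ko spleens at 4 months, against 843, 847 and 1142 in ko spleens at 1 month. In wt spleens Cd3e had 924, 1402 and 806 at 4 months, against 873, 966 and 1024 at 1 month. The ko ages did not overlap, with a log2 difference of 0.76 (SE 0.21, limma adjusted p = 0.0157), and the wt ages did, with one of 0.09 (SE 0.21, limma adjusted p = 0.795). Within the low array set, with 1 ko mouse at 4 months, the ko difference of Cd3e was 0.44.

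Cd3g, Cd3d and Cd3e lie next to each other on chromosome 9, and their promoters are shown with that of Il7r, the gene with the smallest adjusted p among the T cell genes, so that the start regions of neighbouring and of strongly changed genes can be read side by side. The sequences are the 250 bases before the gene start in RefSeq on GRCm38.p6, at chr9:45009612-45009861 (minus strand) for Cd3e, chr9:44981536-44981785 (plus strand) for Cd3d, chr9:44980432-44980681 (minus strand) for Cd3g and chr15:9529877-9530126 (minus strand) for Il7r. Each reads 5′ to 3′ along the gene's strand. Capitals mark short motifs of transcription factor families that T cells use, on either strand: those of ETS, RUNX, TCF/LEF and GATA factors, whose letters are given after the sequences.
Cd3e promoter: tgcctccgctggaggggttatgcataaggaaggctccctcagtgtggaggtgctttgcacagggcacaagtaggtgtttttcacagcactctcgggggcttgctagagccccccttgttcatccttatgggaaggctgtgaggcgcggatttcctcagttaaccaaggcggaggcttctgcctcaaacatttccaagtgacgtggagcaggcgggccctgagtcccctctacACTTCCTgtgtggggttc
Cd3d promoter: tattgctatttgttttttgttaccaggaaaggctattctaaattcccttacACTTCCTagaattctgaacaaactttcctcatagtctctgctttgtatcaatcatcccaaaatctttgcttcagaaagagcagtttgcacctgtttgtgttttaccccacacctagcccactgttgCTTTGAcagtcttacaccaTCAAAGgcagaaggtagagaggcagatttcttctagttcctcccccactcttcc
Cd3g promoter: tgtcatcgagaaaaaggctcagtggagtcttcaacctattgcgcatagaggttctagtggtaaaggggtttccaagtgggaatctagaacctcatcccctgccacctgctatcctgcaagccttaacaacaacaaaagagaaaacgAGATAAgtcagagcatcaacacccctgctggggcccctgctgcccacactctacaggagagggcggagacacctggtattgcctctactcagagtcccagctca
Il7r promoter: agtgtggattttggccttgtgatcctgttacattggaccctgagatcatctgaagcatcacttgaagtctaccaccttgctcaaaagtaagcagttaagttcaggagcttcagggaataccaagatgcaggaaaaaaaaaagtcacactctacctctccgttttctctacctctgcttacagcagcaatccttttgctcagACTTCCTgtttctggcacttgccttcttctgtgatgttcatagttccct

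The ETS letters AGGAAGT began at position -18 from the gene start in Cd3e, -199 in Cd3d and -49 in Il7r, and Cd3g held none in this window. Cd3d also held the TCF/LEF letters CTTTGA at positions -73 and -54. Cd3g held the GATA letters AGATAA at position -104. Promoter windows were found for 23 of the 34 genes, as 37 windows of 250 bases, some of which overlap within a gene. The ETS letters were in 29.7% of those windows and in 7.69% of 32851 windows of all genes. The TCF/LEF letters were in 16.2% of the T cell windows and 13.8% of all windows, and the GATA letters in 8.11% and 9.99%. The RUNX letters TGTGGT were in 10.8% of the T cell windows and 14.0% of all windows. A second ETS motif, CCGGAAG, had the opposite order, at 2.7% of the T cell windows and 6.91% of all windows. In all 10 motifs were searched, and the 4 shown were picked after the matches were seen.

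Cd4, the coreceptor of helper T cells, had the largest age difference of the set in both genotypes. It had 766, 680.0 and 633 in ko spleens at 4 months, against 175, 339 and 169 at 1 month. Its signals in wt spleens were 692, 757 and 899 at 4 months, against 294, 289.9 and 464 at 1 month. All 6 spleens at 4 months lay above all 6 at 1 month. The log2 difference was 1.54 in ko spleens (2.90-fold, SE 0.23, limma adjusted p = 0.000358) and 1.12 in wt spleens (2.17-fold, SE 0.23, limma adjusted p = 0.00311). Its second probe set gave 1.72 in ko spleens and 1.44 in wt spleens, both called.

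Cd8a and Cd8b1 encode the 2 chains of the coreceptor of cytotoxic T cells. Cd8b1 had 1046, 895 and 1142 in ko spleens at 4 months, against 811, 761 and 490.2 at 1 month. In wt spleens Cd8b1 had 1257, 1588 and 1554 at 4 months, against 969.6, 1089.7 and 969 at 1 month. Every 4-month spleen lay above every 1-month spleen of its genotype, with a log2 difference of 0.58 in ko (SE 0.18, limma adjusted p = 0.0282) and 0.52 in wt spleens (SE 0.18, limma adjusted p = 0.0496). The wt call for Cd8b1 sat at the threshold and was lost in 18 of 24 alternatives. The ko call was lost in 8 of 23, with a difference of 0.37 without ko replicate 3 at 1 month (limma adjusted p = 0.15). Cd8a averaged 1379 ± 305 at 4 months and 755 ± 50.3 at 1 month in ko spleens (SD, n = 3 each), a log2 difference of 0.82 (SE 0.18, limma adjusted p = 0.00353) that was 0.43 within the low array set (limma adjusted p = 0.148). In wt spleens it averaged 1356 ± 221 at 4 months and 1005 ± 95.1 at 1 month (SD, n = 3 each), and the difference of 0.41 was not called (limma adjusted p = 0.106). The 5 probe sets of Cd8a disagreed, with log2 age differences between -0.10 and 0.82 in ko spleens and between -0.15 and 0.83 in wt spleens. Of the 5, 3 were called in ko spleens and 1, not the chosen one, in wt spleens.

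The 4 surface glycoproteins that modulate adhesion and receptor signals were all called higher with age in ko spleens, and all but Cd5 in wt spleens. Cd2, an adhesion receptor that binds CD48 in mice, had 1638, 1679.9 and 1710.2 in ko spleens at 4 months, against 1042, 1069 and 631 at 1 month. In wt spleens Cd2 had 2019, 2783 and 2828 at 4 months, against 1121, 1579 and 1483 at 1 month. Neither genotype showed overlap of its ages, and the log2 difference was 0.89 in ko (SE 0.20, limma adjusted p = 0.00443) and 0.85 in wt spleens (SE 0.20, limma adjusted p = 0.00634). For Thy1, a lipid-anchored glycoprotein that marks mouse T cells, the difference was 0.88 in ko (SE 0.19, limma adjusted p = 0.0031) and 0.74 in wt spleens (SE 0.19, limma adjusted p = 0.01). Cd6, a scavenger receptor family protein, differed by 0.81 in ko (SE 0.20, limma adjusted p = 0.00871) and 0.70 in wt spleens (SE 0.20, limma adjusted p = 0.0224). For both Thy1 and Cd6 the wt difference was smaller in the low array set than in the high set. The low set holds 1 wt mouse per age and the high set 2, so array set and single mice cannot be told apart. The wt difference of Thy1 was 0.17 in the low set and 1.02 in the high set (limma adjusted p = 0.00684). That of Cd6 was 0.05 in the low set and 1.02 in the high set (limma adjusted p = 0.0164). Cd5, a related protein that dampens receptor signals, differed by 0.70 in ko spleens (SE 0.17, limma adjusted p = 0.00674) and by 0.34 in wt spleens, where it was not called (limma adjusted p = 0.158).

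By the chosen probe sets, Cd27, Cd28 and Ctla4 of the genes for costimulation were called higher with age in ko spleens and none in wt spleens. Cd28, the main costimulatory receptor of naive T cells, averaged 718 ± 24.5 at 4 months and 425 ± 132 at 1 month in ko spleens (SD, n = 3 each), a log2 difference of 0.76 (SE 0.21, limma adjusted p = 0.0154) that was 0.50 without ko replicate 3 at 1 month (limma adjusted p = 0.0858). In wt spleens Cd28 averaged 709 ± 135 at 4 months and 474 ± 57.9 at 1 month (SD, n = 3 each), a difference of 0.54 (limma adjusted p = 0.0752). All wt spleens at 4 months lay above those at 1 month here too, but the difference missed the threshold. A second probe set of Cd28 was called in both genotypes, at 0.62 in ko and 0.67 in wt spleens. Cd27, a TNF receptor family member, differed by 0.75 in ko (SE 0.20, limma adjusted p = 0.0121) and 0.56 in wt spleens (limma adjusted p = 0.0535). Its ko difference was 0.44 within the low array set, with 1 ko mouse at 4 months. Icos, an inducible relative of Cd28, differed by 0.39 in ko and 0.30 in wt spleens (limma adjusted p = 0.089 in ko and 0.197 in wt spleens). Of its 3 probe sets, 1 other than the chosen one was called higher in ko spleens and 0 were called in wt spleens.

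Ctla4, the inhibitory counterpart of Cd28, had 187, 255 and 222 in ko spleens at 4 months, against 141, 146 and 67.2 at 1 month. In wt spleens it had 191, 172 and 222 at 4 months, against 172, 293 and 151 at 1 month. The ko ages were apart, with a log2 difference of 0.80 (SE 0.27, limma adjusted p = 0.044), and the wt ages overlapped, with one of -0.02 (limma adjusted p = 0.961). The ko call for Ctla4 was lost in 10 of 23 alternatives, the most of any gene called in ko spleens, and the difference was 0.52 without ko replicate 3 at 1 month (limma adjusted p = 0.211). Cd40lg, through which helper T cells license B cells, did not reach the filter: its signals ran between 14.3 and 126 with no order by group.

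Il7r, the receptor chain for the survival cytokine IL-7, had the smallest adjusted p of the set. It had 3513, 3458 and 3641 in ko spleens at 4 months, against 1651, 1822 and 1159 at 1 month. Spleens of wt mice had 3392, 3072 and 2854 at 4 months, against 1666, 1908 and 1656 at 1 month. The 6 older spleens lay above the 6 younger ones, and the log2 difference was 1.20 in ko (2.30-fold, SE 0.16, limma adjusted p = 0.000129) and 0.82 in wt spleens (1.77-fold, SE 0.16, limma adjusted p = 0.00163). As background, developing B cells and innate lymphoid cells also carry this receptor.

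Ccr7, the chemokine receptor that guides T cells into the white pulp, had 2209, 1481 and 2023 in ko spleens at 4 months, against 911, 962 and 728 at 1 month. Its signals in wt spleens were 2205, 2386 and 2289.5 at 4 months, against 1076, 1124 and 1486 at 1 month. The ages did not overlap within either genotype, with a log2 difference of 1.10 in ko (2.14-fold, SE 0.17, limma adjusted p = 0.000458) and 0.90 in wt spleens (1.86-fold, SE 0.17, limma adjusted p = 0.00174). Il2ra, the inducible chain of the IL-2 receptor, was dim throughout, with signals between 33.2 and 122. Its log2 age difference was 0.17 in ko spleens (limma adjusted p = 0.785) and -0.31 in wt spleens (limma adjusted p = 0.579), the lowest of the set there.

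**Figure D2:**
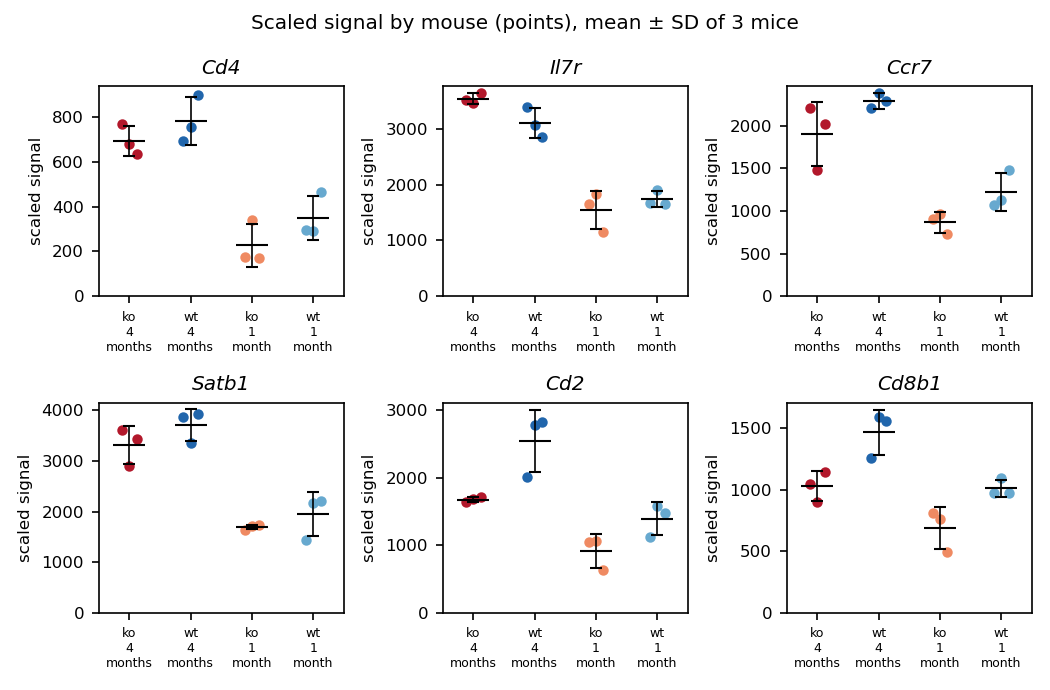
Scaled signal (vertical axis, linear from 0) of 6 genes in each mouse, with points for single spleens and horizontal lines for the mean with SD bars of 3 mice. Cd4, Il7r, Ccr7 and Satb1 separate the ages in both genotypes, and Cd2 and Cd8b1 lie lower in ko than in wt spleens of the same age.

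The genes for signalling next to the receptor were less uniform, with Zap70 and Skap1 called higher in ko spleens and Zap70 and Lat in wt spleens, out of 7 tested. Zap70, the kinase that docks on the phosphorylated receptor subunits, averaged 575 ± 65.1 at 4 months and 341 ± 75.5 at 1 month in ko spleens (SD, n = 3 each). In wt spleens it averaged 548 ± 50.7 at 4 months and 358 ± 36.6 at 1 month (SD, n = 3 each). The log2 difference was 0.71 in ko (SE 0.18, limma adjusted p = 0.00844) and 0.57 in wt spleens (SE 0.18, limma adjusted p = 0.0299). The wt call for Zap70 was lost in 9 of 24 alternatives. Its wt difference was 0.34 in the low array set, with 1 wt mouse per age, and 0.69 in the high set (limma adjusted p = 0.0534). Without the wt spleen with pancreas genes the difference of Zap70 was 0.54 (limma adjusted p = 0.0736). Of its 3 probe sets tested, the chosen one was the only one called, and the lowest gave -0.57 in ko and -0.27 in wt spleens. Skap1, an adaptor that couples the receptor to integrin adhesion, differed by 0.87 in ko (SE 0.20, limma adjusted p = 0.00539) and 0.42 in wt spleens (limma adjusted p = 0.143).

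Lat, the membrane adaptor phosphorylated by ZAP70, had 2159, 2066 and 2147 in ko spleens at 4 months, against 1581, 1688 and 1508 at 1 month. In wt spleens it had 1643, 2133 and 2086 at 4 months, against 1099, 1038 and 1871 at 1 month. The wt spleen of replicate 3 at 1 month lay within the 4-month range, whereas the ko ages were apart. The log2 difference was 0.41 in ko (SE 0.19, limma adjusted p = 0.127) and 0.58 in wt spleens (SE 0.19, limma adjusted p = 0.0359). By the chosen probe sets, Lat was the 1 gene called in wt and not in ko spleens. That call was lost in 10 of 24 alternatives. The wt difference was 0.15 in the low array set, with 1 wt mouse per age, and 0.79 in the high set (limma adjusted p = 0.0156). Without the wt spleen with pancreas genes it was 0.51 (limma adjusted p = 0.101).

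Txk, a Tec family kinase, and Themis, which sets signal strength during thymic selection, were not called at their chosen probe sets. Their log2 age differences were 0.55 and 0.35 in ko spleens and 0.49 and 0.13 in wt spleens. Of the 4 probe sets of Themis, 1 was called higher in wt spleens, where the 4 ran from 0.13 to 0.83. In ko spleens 0 of the 4 were called. Trat1, a small receptor-associated adaptor, had 139.5, 83.5 and 184 in ko spleens at 4 months, against 127, 119 and 122 at 1 month. Spleens of wt mice had 183, 156 and 268 at 4 months, against 116, 93.8 and 136 at 1 month. The log2 difference was 0.65 in wt spleens and was not called (limma adjusted p = 0.0961). In ko spleens the chosen probe set gave 0.07 and the second 0.74, and in wt spleens the second gave 0.64. Neither probe set of Trat1 was called with age in either genotype. Ubash3a, a suppressor of receptor signals, had 218, 223 and 302 in ko spleens at 4 months, against 261, 364 and 315 at 1 month. Its ages overlapped, and its log2 difference of -0.31 in ko spleens was the lowest of the set and not called (SE 0.19, limma adjusted p = 0.269).

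Among the nuclear factors, Lef1, Bcl11b and Satb1 were called higher with age in both genotypes. Satb1, a chromatin organiser of T lineage cells, had 3614, 2898 and 3439 in ko spleens at 4 months, against 1642, 1715 and 1725 at 1 month. Its signals in wt spleens were 3865, 3354 and 3919.7 at 4 months, against 1440.4, 2177 and 2215 at 1 month. The 2 ages were far apart in both genotypes, with a log2 difference of 0.95 in ko (1.93-fold, SE 0.16, limma adjusted p = 0.000762) and 0.95 in wt spleens (1.93-fold, SE 0.16, limma adjusted p = 0.000683). Satb1 kept its call in ko and in wt spleens under every alternative run, and Cd4, Il7r and Ccr7 did so in ko spleens.

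Lef1, a partner of TCF1 in naive and developing T cells, averaged 918 ± 116 at 4 months and 585 ± 110.2 at 1 month in ko spleens (SD, n = 3 each), a log2 difference of 0.63 (SE 0.17, limma adjusted p = 0.0138). In wt spleens Lef1 averaged 1071 ± 38.9 at 4 months and 666 ± 107 at 1 month (SD, n = 3 each), a log2 difference of 0.67 (SE 0.17, limma adjusted p = 0.0105). Bcl11b, which commits progenitors to the T lineage, differed by 0.74 in ko (SE 0.20, limma adjusted p = 0.0131) and 0.63 in wt spleens (SE 0.20, limma adjusted p = 0.0324). The wt call for Bcl11b was lost in 9 of 24 alternatives, among them both array sets and leaving out the wt spleen with pancreas genes, where its difference stayed at 0.63 (limma adjusted p = 0.0668). Ikzf2, the Helios factor of regulatory and other T cells, differed by 0.35 in ko and 0.01 in wt spleens and was not called. Gata3, the factor of helper type 2 and developing T cells, was dim and variable, between 7.02 and 121, and not called. Foxp3, the defining factor of regulatory T cells, did not reach the filter, with signals between 23.3 and 130.3.

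**Figure D3:**
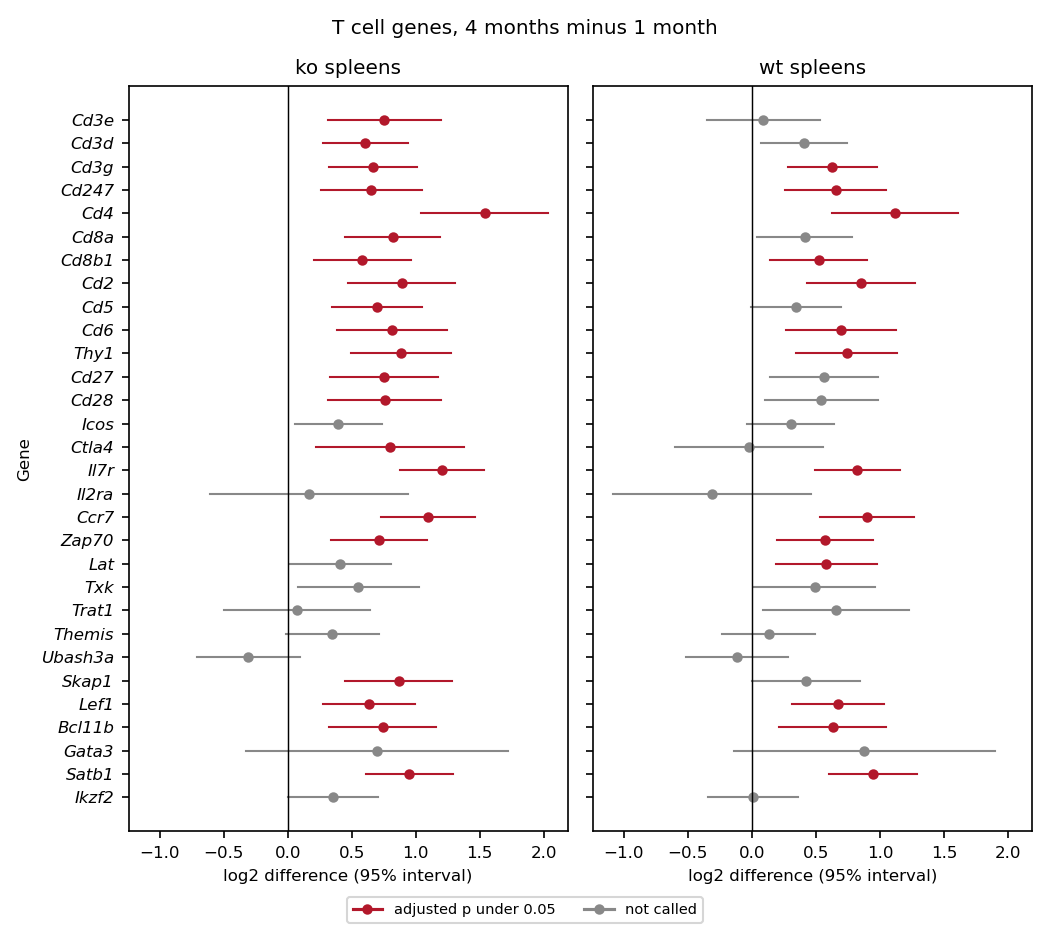
Log2 difference between 4 months and 1 month (horizontal axis) of the 30 T cell genes tested, in ko spleens on the left and wt spleens on the right, with 95% intervals from limma over 3 mice per group. Red marks an adjusted p under 0.05: 21 genes in ko and 14 in wt spleens, all to the right of 0.

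The 2 sets of age calls shared 13 genes, which are 61.9% of those called in ko and 92.9% of those called in wt spleens. By the chosen probe sets, Cd27, Cd28, Cd3d, Cd3e, Cd5, Cd8a, Ctla4 and Skap1 were called in ko spleens and not in wt spleens. For Cd28 and Cd8a a further probe set was called in wt spleens. A call in ko spleens alone does not make the age difference of these genes unlike between genotypes. The test of that difference called 0 of the 30 genes with limma (smallest adjusted p = 0.544, Cd3e). Of all genes, 0.0568% were called. At an unadjusted p under 0.05, 2 of the 30 had a larger age difference in ko spleens, Cd3e by 0.67 and Ctla4 by 0.82 on the log2 scale, where 6.58% of all genes did so. The lowest was Trat1 at -0.58 (limma adjusted p = 0.706), but the second probe set of Trat1 gave 0.10.

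The genotype comparison asked whether loss of Il1rn altered the T cell genes at a given age. At 4 months, 0 of the 30 genes were called between ko and wt spleens with limma, where 2.96% of all genes were called. The median log2 difference was -0.07, against 0.02 for all genes tested. At an unadjusted p under 0.05, 1 gene was higher in ko spleens (Cd3e) and 2 were lower (Cd2 and Cd8b1), where 10.6% and 6.13% of all genes were so. In 4 genes all ko spleens lay below all wt spleens (Cd3g, Cd8b1, Cd2 and Themis), and in 1 above (Il7r), where 10.5% of all genes lay below and 13.3% above. The lowest was Cd2, at -0.58 (SE 0.20, limma adjusted p = 0.154).

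Cd3e had the highest genotype difference at 4 months, 0.64 on the log2 scale (SE 0.21, limma adjusted p = 0.132). The wt spleen of replicate 2, at 1402, lay inside the ko range of 1276 to 2061, and this is the spleen with pancreas genes. Without that spleen Cd3e was called higher in ko spleens at 4 months, with a log2 difference of 0.87 (limma adjusted p = 0.0254). There 994 of 26782 probe sets were called, against 621 of 27041 in the main comparison. Over all spleens, the other CD3 subunits did not share the direction of Cd3e. Their differences were -0.25 for Cd3d, -0.25 for Cd3g and -0.07 for Cd247. Without the same spleen the age comparison in wt spleens called 10 genes in place of 14.

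At 1 month, 0 of the 30 genes were called between ko and wt spleens with limma, where 0.617% of all genes were called. At an unadjusted p under 0.05, 12 genes were lower in ko spleens and 0 higher, where 9.41% of all genes were lower. In 10 genes all ko spleens lay below all wt spleens (Cd3d, Cd8a, Cd8b1, Cd2, Cd5, Ctla4, Ccr7, Themis, Skap1 and Ikzf2), where 11.7% of all genes did so. The log2 differences ran from -0.66 for Ctla4 (SE 0.27, limma adjusted p = 0.252) to 0.46 for Gata3 (SE 0.48, limma adjusted p = 0.667). Without the wt spleen of replicate 3, Lat was the 1 gene called at this age, higher in ko spleens. Calls rose over the whole array in that setting, to 1593 of 26922 probe sets in either direction, against 120 of 27041 in the main comparison.

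How many genes lay below 0 at 1 month depended on the scaling. The median of the 30 genes was -0.20, with 26 below 0 and 4 above. When each array was instead centred on its median, the median of the genes tested was -0.01, with 17 below 0 and 12 above, and the median of all probe sets tested was 0.14. Relative to all probe sets, the T cell median was at -0.16 with the trimmed mean, -0.15 with median centring and -0.22 with quantile normalization. Against the 1 wt spleen of that age in the low array set, the mean log2 level of the T cell genes differed by -0.34, and over all arrays by -0.26.

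**Figure D4:**
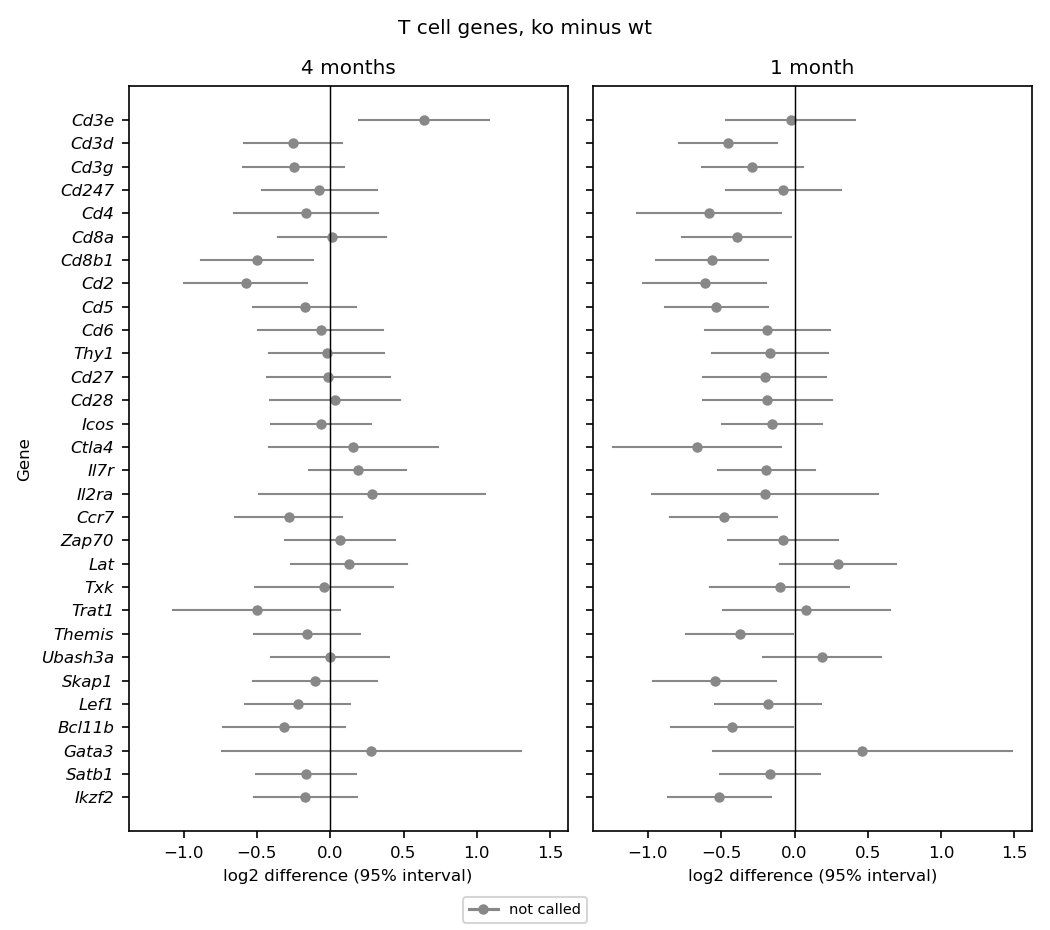
Log2 difference between ko and wt spleens (horizontal axis) of the 30 T cell genes tested, at 4 months on the left and 1 month on the right, with 95% intervals from limma over 3 mice per group. No gene has an adjusted p under 0.05 at either age, and 26 of the 30 points lie left of 0 at 1 month.

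Averaged over both ages, 2 of the 30 genes were called lower in ko spleens, Cd2 and Cd8b1, and 0 higher, where 2.45% of all genes were called lower and 3.89% higher. The log2 difference was -0.60 for Cd2 (SE 0.14, limma adjusted p = 0.0253) and -0.53 for Cd8b1 (SE 0.13, limma adjusted p = 0.0281). For Cd2 the 3 ko spleens lay below the 3 wt spleens at each age, with 1638 to 1710.2 in ko and 2019 to 2828 in wt spleens at 4 months, and 631 to 1069 in ko and 1121 to 1579 in wt spleens at 1 month. Cd8b1 showed the same order, with 895 to 1142 in ko and 1257 to 1588 in wt spleens at 4 months, and 490.2 to 811 in ko and 969 to 1089.7 in wt spleens at 1 month. Each call was lost in 9 of 22 alternatives, among them median centring, eBayes without a trend and leaving out single spleens, although the direction held in all 22.

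The partner chain Cd8a was not called between genotypes, with a log2 difference of -0.19 over both ages (SE 0.12, limma adjusted p = 0.38). By probe set, 3 of 55 were called lower in ko spleens, where 2.56% of all probe sets were: those of Cd2 and Cd8b1 and a further probe set of Satb1, at -0.53 (limma adjusted p = 0.0279). The chosen probe set of Satb1 gave -0.17 and was not called (limma adjusted p = 0.409). At an unadjusted p under 0.05, 11 of the 30 genes were lower in ko spleens, where 11.1% of all genes were. The highest difference was that of Gata3, at 0.37 (limma adjusted p = 0.556).

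The mean log2 level over the 32 genes with a probe set gives the set in 1 number per spleen. It was 9.52, 9.34 and 9.53 in ko spleens and 9.50, 9.58 and 9.47 in wt spleens at 4 months. At 1 month it was 8.82, 8.97 and 8.64 in ko spleens and 9.01, 9.04 and 9.15 in wt spleens. All 3 ko spleens lay below all 3 wt spleens at 1 month, and the genotypes overlapped at 4 months. The ko minus wt difference was -0.06 at 4 months and -0.26 at 1 month, beside a pooled SD of 0.11 within groups. With median centring the 1-month difference was -0.0803, which is inside that SD. Without ko replicate 2 the 4-month difference turned to 0.00502. The difference between ages was 0.65 in ko and 0.46 in wt spleens.

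Single genes followed the other members to different degrees. Over the 12 arrays, which share 4 groups and 1 scaling, Pearson r of a gene with the mean of the other members was highest for Ccr7 (0.98), Cd4 (0.95) and Cd3g (0.95). It was lowest for Ubash3a (-0.50), Il2ra (0.08) and Foxp3 (0.09). After the group means were taken out, r was 0.85 for Ccr7, 0.79 for Cd3g, 0.48 for Ubash3a and -0.23 for Foxp3, so the sign for Ubash3a differed within and between groups. These values describe the 12 spleens and were not tested.

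Of 41 further T cell receptor signalling genes tested, 22 were called higher with age in ko spleens and 22 in wt spleens, and 0 lower in either. Of all genes tested, 15.7% were called higher with age in ko and 12.6% in wt spleens. These shares stand beside the age counts of each list below. Fyn, a kinase related to LCK, was higher by 0.90 in ko (limma adjusted p = 0.000255) and 0.77 in wt spleens (limma adjusted p = 0.000601) on the log2 scale. Lcp2, the SLP-76 adaptor that works with LAT, was higher by 0.81 in ko (limma adjusted p = 0.000956) and 0.74 in wt spleens (limma adjusted p = 0.00165). The phosphatase Ptpn22 was higher by 1.16 in ko (limma adjusted p = 0.000609) and 0.92 in wt spleens (limma adjusted p = 0.00305). The median over the 41 genes was 0.55 in ko and 0.54 in wt spleens.

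Between genotypes, over both ages, 6 of the 41 genes were called lower in ko spleens and 0 higher, where 2.45% and 3.89% of all genes were. The 6 were Malt1 (-0.52), Grap2 (-0.48), Cblb (-0.50), Rasgrp1 (-0.54), Nck1 (-0.39) and Tec (-0.45), with limma adjusted p values between 0.0172 and 0.0417. Malt1 links the receptor to NF-kB, and Rasgrp1 links it to Ras. Malt1 had 2154, 2192 and 2054 in ko spleens and 3483, 2469 and 4099 in wt spleens at 4 months. At 1 month it had 1218, 1207 and 819 in ko spleens and 1193, 1676 and 1491 in wt spleens, with the genotypes apart at 4 months and overlapping at 1 month. Sos1, an exchange factor for Ras, was called lower in ko spleens at 4 months, at -0.74 (limma adjusted p = 0.0274). It was the 1 gene of the 41 called at that age, where 59 of all 12326 genes tested were called lower.

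Among 21 further genes of naive T cells and of homing, 11 were called higher with age in ko and 10 in wt spleens. S1pr1, the receptor by which lymphocytes leave lymphoid organs, was higher by 1.10 in ko (limma adjusted p = 0.000602) and 0.80 in wt spleens (limma adjusted p = 0.00522), and Klf2, the factor that drives it, by 0.88 in ko (limma adjusted p = 0.00311) and 0.69 in wt spleens (limma adjusted p = 0.0153). Over both ages S1pr1 (-0.47), Foxp1 (-0.44) and Bach2 (-0.64) were called lower in ko spleens and Zbtb7b (0.95) higher, with limma adjusted p values between 0.0127 and 0.0448. Of all genes, 2.45% were called lower and 3.89% higher. S1pr1 and Bach2 are also made by B cells.

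Of 16 further regulatory T cell genes tested, 7 were called higher with age in ko and 4 in wt spleens, led in ko spleens by Prdm1 (1.19, limma adjusted p = 0.000214), which plasma cells also make. Of 20 genes of helper and activated T cells, 10 were called higher in ko and 8 in wt spleens, with Havcr2 the highest in both, at 1.52 in ko (limma adjusted p = 0.000925) and 1.43 in wt spleens (limma adjusted p = 0.00133). At 1 month 2 of these 20 genes, Slamf6 (-0.90, limma adjusted p = 0.0403) and Ccr6 (-0.84, limma adjusted p = 0.0477), were called lower in ko spleens. Of all 12326 genes tested, 31 were called lower at that age. Slamf6 had 885, 802 and 559.7 in ko spleens and 1408, 1538 and 1257 in wt spleens at that age, without overlap. Of 21 listed genes of the antigen-binding receptor chains, 2 had a probe set used here, and only Trbv13-2 was tested, with signals between 60.9 and 141 and no call in any comparison run.

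Genes of other spleen cells moved with the T cell genes, and their part in the results was not tested. With age, 14 of 18 B cell genes were called higher in ko and 15 in wt spleens, with medians of 0.79 in ko and 0.71 in wt spleens on the log2 scale. Red pulp macrophage genes were called higher in 11 of 11 in ko and 9 of 11 in wt spleens, and NK and cytotoxic genes in 9 of 18 in each genotype. Of all genes, 10.9% were called lower with age in ko and 11.5% in wt spleens. Neutrophil genes went the other way from the T cell genes, with 15 of 17 called lower with age in ko and 14 in wt spleens, and so did erythroid genes, with 10 of 15 in ko and 15 in wt spleens. Their summed signals were large: the 17 neutrophil genes summed to 55219 to 73300 in ko and 11408 to 16352 in wt spleens at 4 months, and to 135120 to 169259 in ko and 46428 to 57103 in wt spleens at 1 month. The 15 erythroid genes summed to 111096 to 126185 in ko and 49569 to 85929 in wt spleens at 4 months, and to 161991 to 181017 in ko and 156588 to 205133 in wt spleens at 1 month. Adipose genes were also higher with age, and where their RNA came from was not tested. Of 4 tested, Fabp4 and Car3 were called in ko spleens and Fabp4 in wt spleens, with medians of 2.24 in ko and 1.54 in wt spleens on the log2 scale. The 6 adipose genes with a probe set summed to 3651 to 9293 in ko and 3216 to 10373 in wt spleens at 4 months, and to 558 to 2500.4 in ko and 621 to 4431 in wt spleens at 1 month, so the ages overlapped in wt spleens. Lep was between 2.86 and 43.0 in all 12 arrays.

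Between genotypes, 15 of 17 neutrophil genes were called higher in ko spleens at 4 months and 15 at 1 month, and the 32 T cell genes summed to 30525 to 35358 in ko and 35579 to 37733 in wt spleens at 4 months. At 1 month the T cell genes summed to 17113 to 21582 in ko and 22644 to 25103 in wt spleens, without overlap at either age. Bright genes weigh most in a sum. By mean log2 level the genotypes overlapped at 4 months, with 9.34 to 9.53 in ko and 9.47 to 9.58 in wt spleens. B cell genes had a median log2 difference of -0.34 at 4 months and -0.46 at 1 month, and 7 of 18 were called lower over both ages, where 2.45% of all genes were. Erythroid genes were called higher in ko spleens in 12 of 15 at 4 months and in 0 of 15 at 1 month with limma. Of all 12326 genes tested, 306 were called higher in ko spleens at 4 months and 45 at 1 month.

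**Figure D5:**
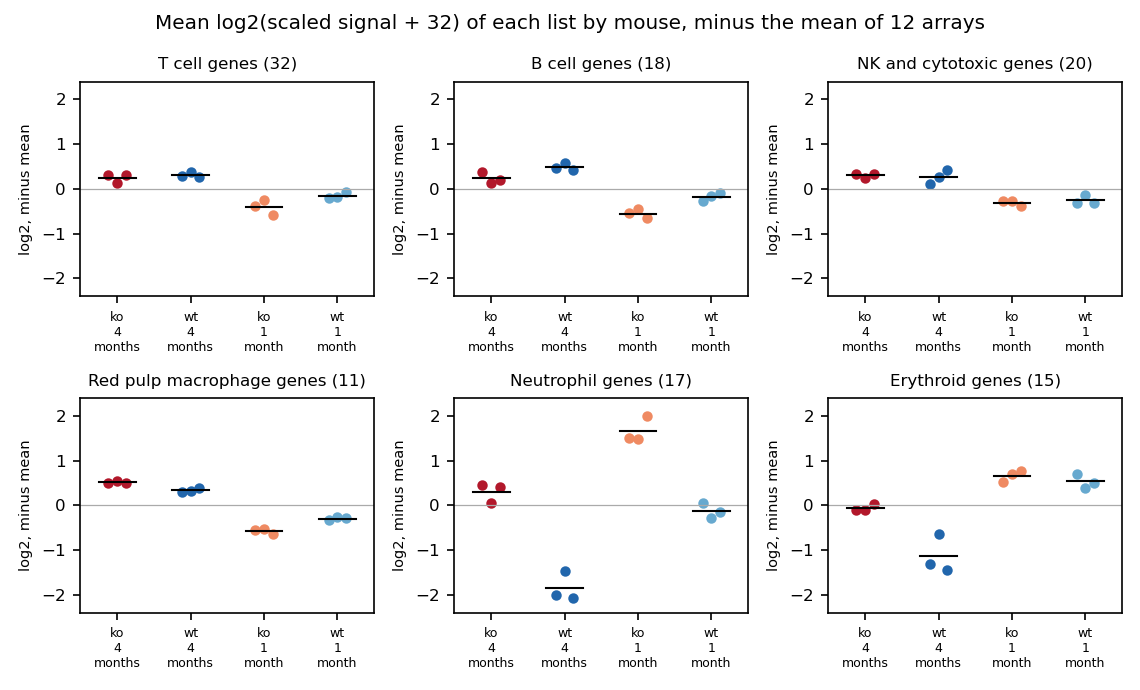
Mean log2(scaled signal + 32) of 6 gene lists in each spleen, minus the mean of the 12 arrays (vertical axis), with points for single mice, lines for group means and the number of genes in brackets. T cell, B cell, NK and red pulp macrophage genes are higher at 4 months, while neutrophil and erythroid genes are higher at 1 month, and neutrophil genes are higher in ko than in wt spleens at both ages.

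The 10 genes outside the set whose levels were most like the mean of the T cell genes over the 12 arrays, by Pearson r, were Serpina1b and H2-Eb1 (0.98 each), Acap1, Gimap3, Septin6, Hvcn1 and Igfbp5 (0.98 each), Cst3 and H2-Ab1 (0.97 each) and Rhoh (0.97). H2-Eb1 and H2-Ab1 encode MHC class II chains of antigen-presenting cells, and Rhoh is a GTPase of blood cells that acts in T cell receptor signalling. An r above 0.9 was reached by 331 of 12296 genes, which is 2.69%. The 12 points share 4 groups and the same scaling, and r was not tested.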

How the data were processed

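Total RNA of 12 spleens was extracted with Trizol and biotin-labelled, 1 mouse per array, per the labels' protocols. The deposited values are signal intensities per probe set on a linear scale, made by the authors with MAS5 per the submitters' processing notes, with no version given in the sources used here. A MAS5 signal weighs probes against mismatch probes, and dim probe sets are noisy. The number of arrays limits the precision.

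Signals were brought to a trimmed mean (2% off each end) of 500 on every array, and log2(scaled signal + 32) was used. Control probe sets (64) were left out, and 27041 probe sets with a signal of at least 100 in 3 or more arrays were tested. Genes were named from the platform annotation: 34945 probe sets had 1 symbol, 932 several and 9160 none. Limma 3.58.1 in R 4.3.3 fitted 4 group means on 12 arrays (lmFit, eBayes with an intensity trend, 2-sided), with 8 residual degrees of freedom. P-values were adjusted by Benjamini-Hochberg over all probe sets tested and called under 0.05. The offset of 32 shrinks the log2 differences of dim genes. The script was tested on simulated data.

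Members, gene lists and tests were chosen with earlier results of these data known. All 34 members are named, with full statistics for those called and for the extremes of each comparison. Of the other lists, only some of the genes called are named. Alternatives changed the scaling, offset, filter, trend, threshold, array set, replicate block and single spleens. The labels do not say how the mice were bred or housed, so p-values measure the spread between these animals.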

Additional observations from a re-analysis of the deposited data

How the results depend on the processing

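No called gene changed direction under the alternatives run, but 2 of the summary values (mean levels and medians over the genes) did. The mean log2 level, -0.06 between genotypes at 4 months, was 0.00502 without ko replicate 2 of that age. The genes' median difference between the genotype effects at the 2 ages, 0.14, was -0.01 with median centring. Counts of genes called are of the genes tested in each setting. These were 30 in the main comparison, 29 with median centring and 28 within the low array set. With only the groups compared, 28 were tested with age in wt spleens. With median centring of each array, 0 genes were called between genotypes over both ages in place of 2, and 11 with age in ko spleens in place of 21. The mean log2 level then differed by -0.0803 between genotypes at 1 month, by 0.0527 between the genotype differences at the 2 ages, and by 0.48 with age in ko spleens. Over both ages, 0 genes were called without the intensity trend, 6 at an adjusted p under 0.10, 1 with the array set as a block and 0 within the low array set. Within the low array set most age calls were lost, and the mean log2 level differed with age by 0.53 in ko and 0.32 in wt spleens. Fewer arrays enter that setting. With only the groups compared in the fit, 8 genes were called with age in wt spleens in place of 14. The cause of the other shifts was not tested.

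Leaving out each spleen in turn gave 13 to 22 calls with age in ko spleens (13 without ko replicate 3 at 4 months, 14 without ko replicate 3 at 1 month). In wt spleens it gave 6 to 15 (6 without wt replicate 1 and 8 without wt replicate 2 at 1 month). Over both ages it gave 0 to 6 calls, with 6 without wt replicate 3 at 1 month, 1 without ko replicate 3 at 4 months, and 0 without ko replicate 3 or wt replicate 2 at 1 month and without ko replicate 1 or 2 or wt replicate 3 at 4 months. Leaving out single spleens gave 0 to 1 calls at 4 months and 0 to 1 at 1 month between genotypes. Without wt replicate 3 at 1 month, calls over both ages rose over the whole array, to 2909 of 26922 probe sets. In the main comparison they were 1457 of 27041. With a replicate block, 21 genes were called with age in ko spleens, 13 in wt spleens, 2 over both ages and 0 in the other comparisons. The mice were not treated as paired by number. Pearson r of the deviations of same-numbered spleens ran from -0.20 to 0.21, over 0.1 in 4 of 18 pairs. With 3 arrays per group, these values cannot show whether the mice were matched. Genes under a signal of 100, such as Foxp3 and Cd40lg, are too dim for a comparison here.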
